A study of Mus musculus with 6 samples.

Results

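The proteasome subunit genes outside the immunoproteasome were followed through cultured mouse aortic endothelial cells (MAEC) with an endothelial-specific knockout of Oct4, in 3 libraries from female and 3 from male mice. The members are the 45 protein-coding genes, of 54532 genes in the count table, whose symbol is Psm, a letter from a to g and a number, without Psmb8, Psmb9 and Psmb10. They are 16 genes of the 20S core, 17 of the 19S regulatory particle and 12 activators, inhibitors and assembly factors, and they lie on 16 chromosomes, 1 of them, Psmd10, on X. All 6 libraries carried the Oct4 KO genotype, were labelled endothelial, received no treatment and were grown in F-12 medium with 20% fetal bovine serum, heparin and endothelial growth factors. The Cre driver, the age of the mice and the number of animals or cultures behind each library are not stated in the sources used here. The p-values therefore measure the spread between these samples, some or all of which may be technical. Wild-type littermate cells were not analysed here, so every comparison is between female and male knockout cells and none is an effect of the knockout.

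Total counts were 19299742 to 23064738 per library. Pou5f1, the gene of OCT4, had 0 counts in all 6 libraries, which says nothing on the deletion without wild-type cells measured beside them. The sex labels fitted the data, with 28171, 31900 and 21282 Xist counts in female and 8, 0 and 5 in male libraries. Of 12 endothelial markers, 10 lay under 1 CPM in every library (the counts-per-million level over the effective library size) and Cldn5, Emcn and Robo4 were at 0, so the labelled cell type was not borne out by its defining genes. Their summed level was 4.76 to 7.34 CPM in female and 4.99 to 5.68 CPM in male libraries. The summed level of 10 fibroblast and mesenchymal markers was 15358 to 17168 CPM in female and 7698 to 8304 CPM in male libraries, that of 5 smooth muscle markers 60.0 to 64.7 CPM and 149.8 to 162 CPM, and that of 5 leukocyte markers 5.12 to 7.33 CPM and 2.66 to 4.15 CPM, with Ptprc, Adgre1 and Cd3e at 0. In female cells the fibroblast sum was carried by a few genes, Dcn above all at 6375 ± 448 CPM, against 442 ± 58.7 CPM in male cells (SD, n = 3 each). In male cells Col3a1 was the highest of the 10, at 2344 ± 92.4 CPM. Of the 10 genes 6 rose, 3 fell and 1 was not called, where 30.9% of all genes tested rose and 29.8% fell. All 8 proliferation genes fell in female cells (median -0.99, female over male on the log2 scale), against 29.8% of all genes tested. Their summed level was 213 to 224 CPM in female libraries, against 435 to 448 CPM in male libraries. The part of these differences in the values below was not tested, and in bulk RNA fewer cells of a type and less RNA per cell cannot be told apart.

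The proteasome degrades proteins that carry ubiquitin chains. Its barrel, the 20S core, is made of outer alpha rings, which gate the entrance, and inner beta rings, which hold the proteolytic sites. The 19S regulatory particle caps the barrel. Its base holds the ATPases that unfold the substrate and thread it inwards, and its lid holds the deubiquitinase that takes the chain off. Because the subunits are built into a particle in fixed proportion, their genes are known to be induced together when proteasome activity is short, through the transcription factor NFE2L1 (also called NRF1) at antioxidant response elements. In the immunoproteasome, which immune signals induce, the catalytic beta subunits are exchanged for those encoded by Psmb8, Psmb9 and Psmb10.

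Promoters were read from RefSeq windows on GRCm38.p6 that run from 250 bases before to 50 bases after a gene's start, and 36 of the 43 members that could be tested for expression had one. The motifs searched on both strands were the ETS core CCGGAAG, the antioxidant response element core TGACNNNGC, the CCAAT box CCAAT, the nuclear respiratory factor 1 motif and the TATA box TATAAA, and matches of different motifs never overlapped in a member. Matches of the same motif shared bases in Psmd14 (CCAAT boxes, 2 bases) and in Psmb4 (TATA boxes, 4 bases). The 6 windows below set catalytic subunits of the core beside regulatory subunits, with every motif match in capitals.
Psmb5: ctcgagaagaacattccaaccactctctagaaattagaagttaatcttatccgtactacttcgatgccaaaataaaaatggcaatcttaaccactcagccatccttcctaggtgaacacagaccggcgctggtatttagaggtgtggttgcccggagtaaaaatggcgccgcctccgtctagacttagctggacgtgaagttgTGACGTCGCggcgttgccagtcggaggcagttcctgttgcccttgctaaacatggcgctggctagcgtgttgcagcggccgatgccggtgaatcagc
Psmb6: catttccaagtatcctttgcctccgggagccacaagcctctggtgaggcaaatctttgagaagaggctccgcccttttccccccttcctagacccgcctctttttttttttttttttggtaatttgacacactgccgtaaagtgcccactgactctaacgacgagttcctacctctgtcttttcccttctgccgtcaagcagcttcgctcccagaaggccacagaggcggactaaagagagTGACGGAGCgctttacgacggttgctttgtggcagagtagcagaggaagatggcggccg
Psmc1: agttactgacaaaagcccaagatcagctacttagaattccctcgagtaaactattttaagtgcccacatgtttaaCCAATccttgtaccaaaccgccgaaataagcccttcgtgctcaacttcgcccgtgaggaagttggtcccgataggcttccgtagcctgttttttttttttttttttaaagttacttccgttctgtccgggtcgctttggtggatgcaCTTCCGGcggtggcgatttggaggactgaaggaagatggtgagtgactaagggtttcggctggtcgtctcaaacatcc
Psmd2: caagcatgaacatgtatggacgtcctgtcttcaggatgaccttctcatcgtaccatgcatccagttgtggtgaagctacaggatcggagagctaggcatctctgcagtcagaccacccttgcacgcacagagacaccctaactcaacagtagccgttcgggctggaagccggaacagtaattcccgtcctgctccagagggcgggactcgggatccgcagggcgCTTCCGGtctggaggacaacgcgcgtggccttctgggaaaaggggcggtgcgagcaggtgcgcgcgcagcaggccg
Psmd11: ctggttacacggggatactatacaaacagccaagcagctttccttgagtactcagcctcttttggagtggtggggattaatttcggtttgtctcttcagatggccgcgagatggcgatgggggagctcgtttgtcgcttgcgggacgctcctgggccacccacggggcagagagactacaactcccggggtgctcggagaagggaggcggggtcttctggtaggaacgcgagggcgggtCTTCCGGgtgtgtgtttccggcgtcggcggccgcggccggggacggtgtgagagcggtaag
Psmd12: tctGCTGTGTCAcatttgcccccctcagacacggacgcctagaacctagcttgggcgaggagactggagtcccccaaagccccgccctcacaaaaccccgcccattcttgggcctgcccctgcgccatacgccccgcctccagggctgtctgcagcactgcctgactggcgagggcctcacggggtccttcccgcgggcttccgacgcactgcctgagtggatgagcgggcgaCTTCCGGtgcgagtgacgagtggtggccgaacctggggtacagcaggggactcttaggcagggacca
The windows are chr14:54617946-54618245 on the minus strand for Psmb5, and on the plus strand chr11:70525107-70525406 for Psmb6, chr12:100109952-100110251 for Psmc1, chr16:20651402-20651701 for Psmd2, chr11:80428365-80428664 for Psmd11 and chr11:107479278-107479577 for Psmd12. In Psmb5 and Psmb6 the capitals are antioxidant response element cores, 47 and 9 bases upstream of the start. In Psmd2, Psmd11 and Psmd12 an ETS core stands 26, 11 and 17 bases upstream. Psmc1 has an ETS core 28 bases and a CCAAT box 175 bases upstream, and Psmd12 a further antioxidant response element core 247 bases upstream. An ETS core was found in 9 of 14 promoters of 19S genes (64.3%), in 1 of 11 of core genes (9.09%, Psma6) and in 4 of 11 of the other members (36.4%), against 19.6% of 10472 tested genes with a window and 9.93% of all 27025 windows' genes. The antioxidant response element core was found in 6 of 36 members (16.7%), against 16.9% of tested genes and 14.0% of all genes. It was in 2 of 11 core promoters (18.2%), those of Psmb5 and Psmb6 printed above, and in 2 of 14 19S promoters (14.3%). The CCAAT box was in 6 of 11 core promoters (54.5%) and 4 of 14 19S promoters (28.6%), against 43.1% of tested genes. The nuclear respiratory factor 1 motif was in 7 of 36 members (19.4%) and 11.2% of tested genes, and the TATA box in 3 of 36 (8.33%) and 8.81%. These matches describe letters in a window, and bear neither on binding nor on the values below.

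Of the 45 members, 43 passed the filter on low counts. Psma8 and Psmb11 did not. Psma8 encodes an alpha subunit of the testis and had 0, 0 and 3 counts in female and 0, 0 and 0 counts in male libraries. Psmb11 encodes the catalytic subunit of the thymoproteasome and had 0, 0 and 3 counts in female and 2, 1 and 1 counts in male libraries. A count of 0 allows up to 3 counts, which is 0.123 to 0.154 CPM here, counting error only. The 43 others had 58 to 8172 counts in a library.

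Most proteasome genes were lower in female than in male knockout cells. At an adjusted p under 0.05, 29 of 43 members fell (67.4%), 2 rose (4.65%) and 12 were not called, while of all 14814 genes tested 60.7% were called, 29.8% lower and 30.9% higher. The members' median log2 fold change, female over male, was -0.37, against -0.01 over all genes, and single members ran between -1.09 and 0.53. In 31 members (72.1%) all 3 female libraries lay under all 3 male libraries, in 3 (6.98%) they lay above, and in 9 the sexes overlapped, against 33.2% lower and 33.9% higher, 67.1% in all, of the genes tested. The 29 were 12 of 14 core genes, 10 of 17 genes of the 19S particle and 7 of 12 of the rest.

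**Figure D1:**
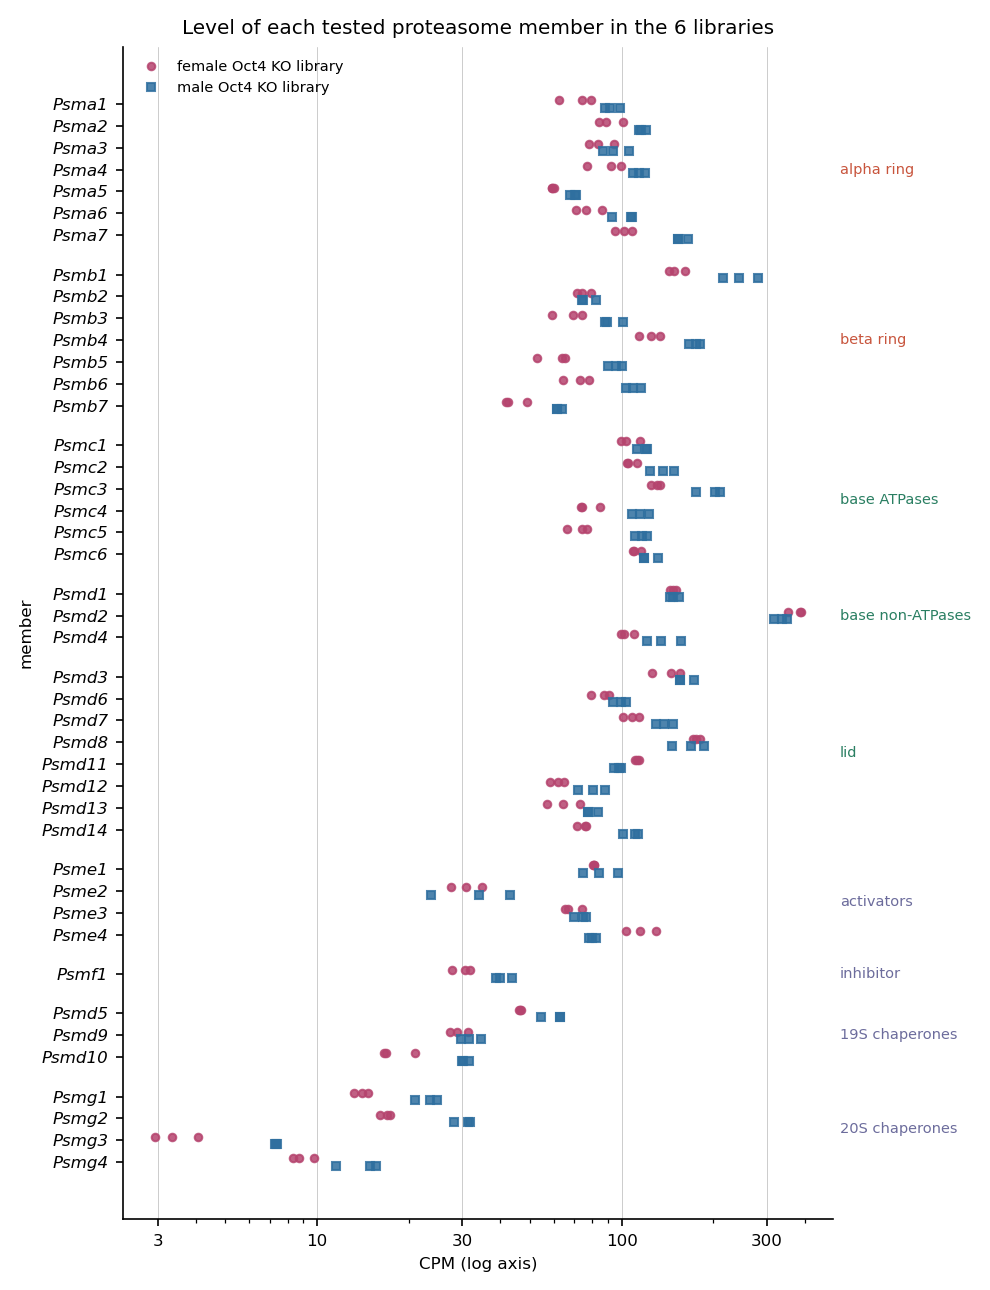
Level of each tested member in CPM (log axis) in the 6 libraries, grouped by role, with female libraries as circles above male libraries as squares. Female points lie left of the male ones in most rows, and right of them in Psme4, Psmd11 and Psmd2.

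The fold changes of all genes followed gene length, and proteasome genes are short. The 10812 genes that averaged 5 CPM or more were put into 5 equal bins by length. The median log2 fold change was -0.40 in bin 1 (57 to 2541 bases), -0.19 in bin 2, then 0, 0.16 and 0.39 in bin 5 (7786 to 123179 bases). Of the members, 18 lay in bin 1, 14 in bin 2, and 5, 5 and 1 in the longer bins. Their medians were 2335 bases in the core, 2820 bases in the 19S particle and 2551 bases in the rest. The slope of log2 CPM on log2 length, relative to the mean of the 6 libraries, was 0.137, 0.186 and 0.071 in female and -0.131, -0.159 and -0.103 in male libraries, so it separated the sexes without overlap.

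**Figure D2:**
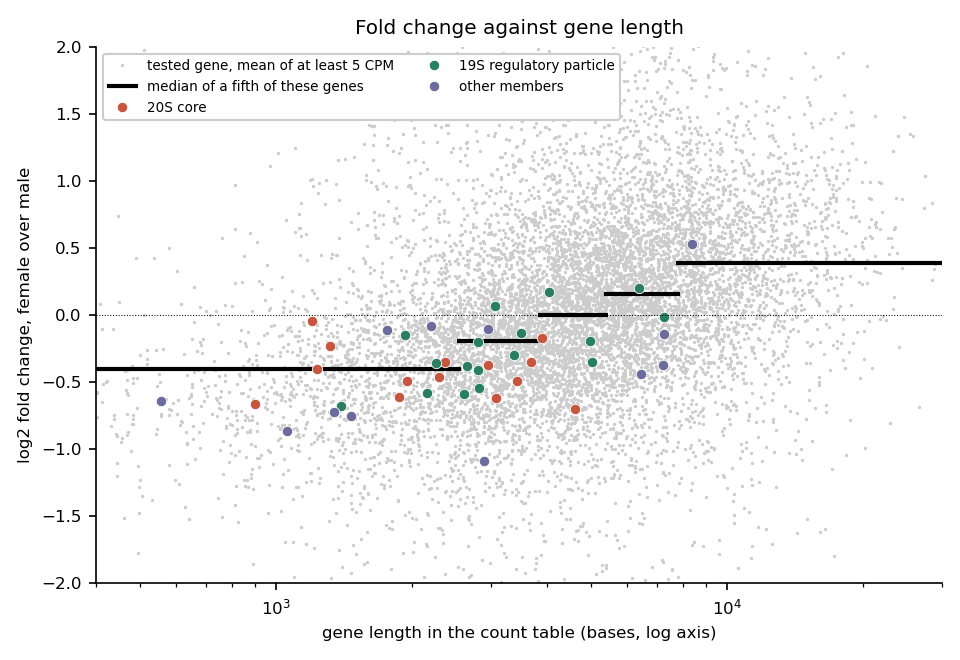
Log2 fold change, female over male, against gene length in bases (log axis) for genes that averaged 5 CPM or more (grey), with the median of each of 5 length bins as a black bar and the members in colour by group. The bars climb from -0.40 to 0.39, and most members sit among the shorter genes.

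When each library was corrected for this trend with the gene length in the count table, 25 members fell (58.1%, against 30.8% of all genes, of which 58.8% were called either way), 2 rose and the members' median was -0.21. With the length of the longest principal transcript instead, 14 fell (32.6%, against 30.5% of all genes), 4 rose (9.30%, against 27.0%) and the median was -0.08. The share that fell with principal transcripts was near that of all genes. The same 14 members fell in all 3 fits: Psma2, Psma7, Psmb1 and Psmb5 of the core, Psmc3, Psmc4, Psmc5 and Psmd14 of the 19S particle, and Psmf1, Psmd5, Psmd10, Psmg1, Psmg2 and Psmg3. No member rose in all 3. The share of all genes that fell in all 3 fits was not counted. The counts after both corrections are given below for each role with more than 1 gene, gene-length correction first and principal-transcript correction second.

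**Figure D3:**
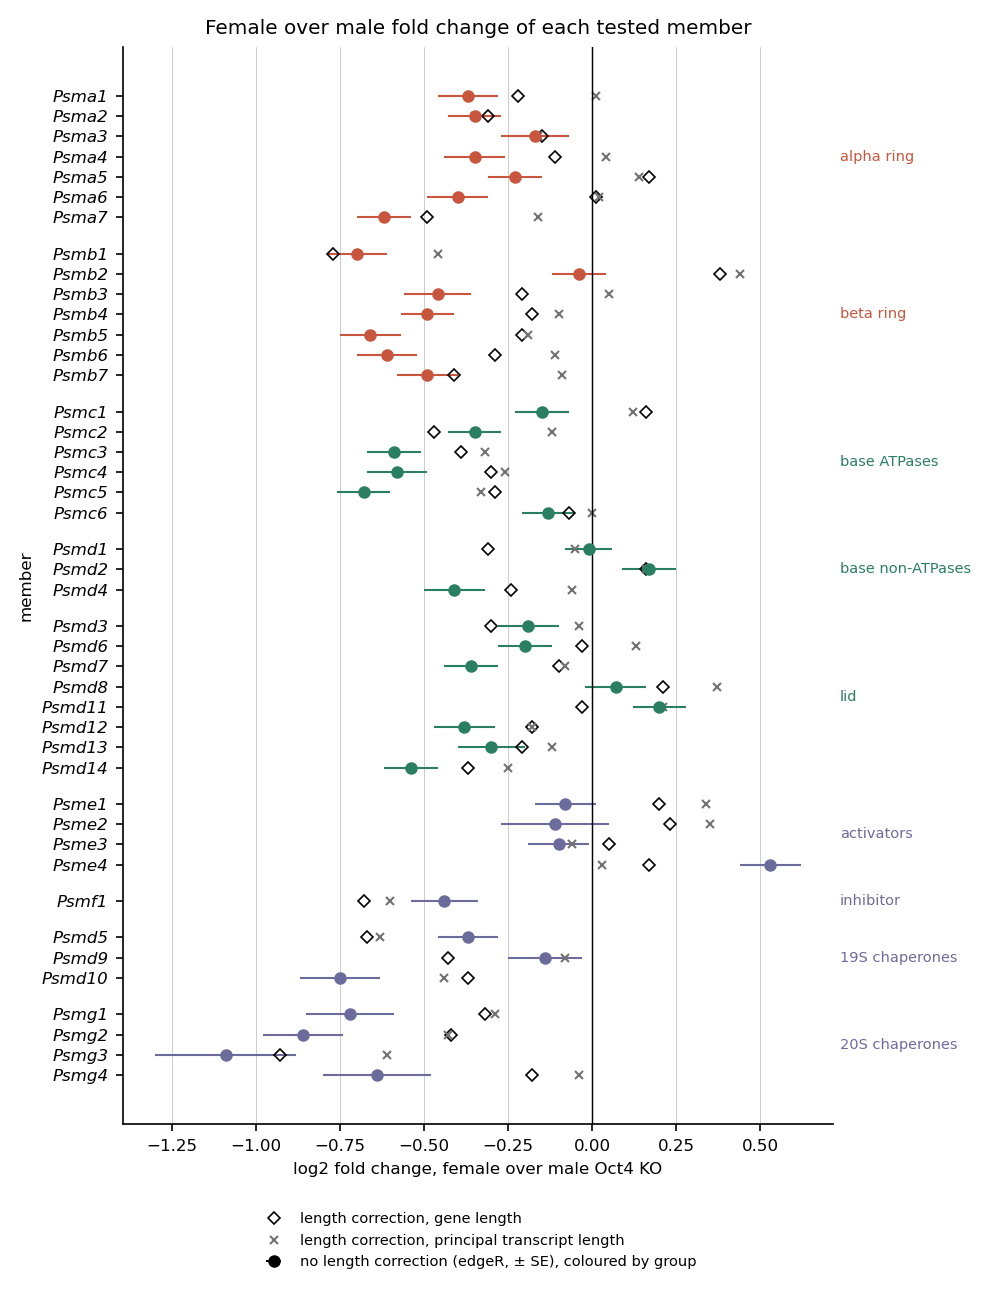
Log2 fold change, female over male, of the 43 tested members with its SE, in colour by group. Open diamonds give the value after gene-length correction and grey crosses that after principal-transcript correction; the crosses lie nearer 0 than the filled points in most rows.

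In the outer alpha rings 6 of 7 tested genes fell in female cells, and the median log2 fold change was -0.35. After the corrections 3 and 2 of the 7 fell (42.9% and 28.6%, against 30.8% and 30.5% of all genes). The medians were then -0.15 and 0.01. Psma7 (chr2:180036374-180042433) had 102, 95.4 and 108 CPM in female libraries, against 153, 165 and 153 CPM in male libraries. The sexes were apart by far more than the spread within either, with a log2 fold change of -0.62 ± 0.08 (SE, adjusted p = 3.85e-06). Psma6 (chr12:55384222-55418454) had 76.3, 70.8 and 85.9 CPM in female libraries, against 108, 107 and 93.3 CPM in male libraries, a log2 fold change of -0.40 ± 0.09 (adjusted p = 0.00118). It did not overlap between the sexes either, but was 0.01 and 0.02, not called, after the corrections. Psma7 was -0.49 and -0.16 (adjusted p = 1.11e-05 and 0.0476). Psma3 was the alpha gene not called, with 77.9, 83.4 and 94.5 CPM in female libraries, against 106, 93.7 and 87.1 CPM in male libraries. Its sexes overlapped, and the log2 fold change was -0.17 ± 0.10 (adjusted p = 0.143). Without the third female library Psma3 was called, at -0.24 (adjusted p = 0.0461).

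Psma1, Psma2 and Psma4, at log2 fold changes of -0.37, -0.35 and -0.35, moved by about the same amount, and Psma5 by -0.23 ± 0.08 (adjusted p = 0.0185). Psma2 kept -0.31 and -0.35 under the gene-length and the principal-transcript correction. Psma1 and Psma4 came to 0.01 and 0.04 under the second. The call of Psma5 rested on single libraries, since its adjusted p was 0.0664 without the first female library and 0.0613 without the first male one, and it was 0.17 after gene-length correction.

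In the beta rings 6 of 7 tested genes fell, with a median of -0.49. After the corrections 6 and 2 fell (85.7% and 28.6%, against 30.8% and 30.5% of all genes) and 1 rose in each. The medians were then -0.21 and -0.10. The 3 catalytic subunits were among the 6 that fell before correction. Psmb5 (chr14:54614119-54618022), which encodes the subunit that cuts after hydrophobic residues and is the main target of bortezomib, had 65.3, 52.7 and 63.8 CPM in female libraries, against 100.3, 96.0 and 90.4 CPM in male libraries. That is a mean of 60.6 ± 6.86 CPM in female and 95.6 ± 4.99 CPM in male cells (SD, n = 3 each), with no overlap. The log2 fold change was -0.66 ± 0.09 (adjusted p = 1.21e-05), and -0.21 and -0.19 after gene-length and principal-transcript correction, both still called.

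Psmb6 (chr11:70525367-70527858), whose product cuts after acidic residues, had 73.0, 64.4 and 77.9 CPM in female libraries, against 116, 109 and 103 CPM in male libraries. Its log2 fold change was -0.61 ± 0.09 (adjusted p = 1.63e-05), with -0.29 after gene-length correction and -0.11, not called, after principal-transcript correction. Psmb7 (chr2:38588036-38644087), whose product cuts after basic residues, had 41.8, 42.5 and 48.9 CPM in female libraries, against 63.7, 61.2 and 61.5 CPM in male libraries. All 3 catalytic genes were thus lower in CPM in every female library. For Psmb7 the log2 fold change was -0.49 ± 0.09 (adjusted p = 0.0002), with -0.41 after gene-length correction and -0.09, not called (adjusted p = 0.326), after principal-transcript correction. Nek6 on the opposite strand of its span had 269% of its counts, and counting without strand cannot separate such genes.

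Psmb1 (chr17:15475021-15499751), a subunit without a catalytic site, changed most in the core. It had 149, 143 and 162 CPM in female libraries, against 243, 280.5 and 215 CPM in male libraries, a log2 fold change of -0.70 ± 0.09 (adjusted p = 6.63e-06). It also stayed lowest under both corrections, at -0.77 and -0.46. Psmb3 and Psmb4, which are likewise structural, fell by 0.46 and 0.49 on the log2 scale, and came to 0.05 and -0.10 after principal-transcript correction. Psmb2 (chr4:126677630-126709714) stood apart from its ring. It had 73.9, 71.2 and 79.2 CPM in female libraries, against 73.9, 82.3 and 74.4 CPM in male libraries, which overlap, and its log2 fold change was -0.04 ± 0.08 (adjusted p = 0.706). After the gene-length and principal-transcript corrections it was 0.38 and 0.44 and called higher (adjusted p = 0.000295 and 7.31e-05).

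The constitutive catalytic subunits stood at unequal multiples of their immunoproteasome counterparts. Per kilobase of gene length, Psmb6 was 57.9, 44.7 and 34.6 times the level of Psmb9 in female libraries, against 368, 184 and 350 times in male libraries. Psmb5 was 26.7, 16.6 and 16.6 times the level of Psmb8 in female libraries, against 89.4, 57.9 and 176 times in male libraries. Psmb7 was 0.98, 0.986 and 1.21 times the level of Psmb10 in female libraries, against 1.58, 1.63 and 1.51 times in male libraries. With principal transcript lengths the last ratio was 2.22, 2.24 and 2.75 in female and 3.57, 3.71 and 3.42 in male libraries. In all 3 pairs the female ratios lay under the male ones. Psmb8 and Psmb9 rose in female cells, to 9.61 ± 2.14 CPM, against 3.34 ± 1.74 CPM in male cells, and to 3.23 ± 1.04 CPM, against 0.784 ± 0.326 CPM (log2 fold change 1.54 ± 0.31 and 2.05 ± 0.41, adjusted p = 0.000355 and 0.000384). Psmb10, at 20.9 ± 0.722 CPM in female and 19.7 ± 0.915 CPM in male cells, was not called (adjusted p = 0.546). After the gene-length and principal-transcript corrections it was called higher, at 0.44 in both (adjusted p = 0.00536 and 0.00533), so that all 3 immunoproteasome genes rose.

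Among the ATPases of the 19S base 4 of 6 fell, with a median of -0.47. After the corrections 4 and 3 fell, with medians of -0.29 and -0.19. Psmc5 (chr11:106256154-106263120) had 74.2, 66.3 and 77.1 CPM in female libraries, against 117, 121 and 111 CPM in male libraries, a log2 fold change of -0.68 ± 0.08 (adjusted p = 2.68e-06). Psmc3 (chr2:91054009-91066369) had 131, 125 and 134 CPM in female libraries, against 203, 209.6 and 176 CPM in male libraries, a log2 fold change of -0.59 ± 0.08 (adjusted p = 1.1e-05). In both genes every female library lay under every male one, and both stayed called after the corrections, Psmc5 at -0.29 and -0.33 and Psmc3 at -0.39 and -0.32. Slc39a13, on the opposite strand of the Psmc3 span, had 54.1% of its counts. Psmc4 fell by 0.58 and Psmc2 by 0.35 on the log2 scale, with -0.26 and -0.12 after principal-transcript correction.

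The other two ATPase genes were not called. Psmc1 had 103, 99.7 and 115 CPM in female libraries, against 121, 112 and 120.3 CPM in male libraries. Its sexes overlapped, with a log2 fold change of -0.15 ± 0.08 (adjusted p = 0.119), and it was called without the third female library, at -0.21 (adjusted p = 0.0486). Psmc6 had 109, 116 and 109.8 CPM in female libraries, against 132, 118 and 118 CPM in male libraries. Here the sexes did not overlap, but the difference of -0.13 ± 0.08 on the log2 scale did not pass the test (adjusted p = 0.16). The 6 ATPases form 1 hexameric ring, in which the measured log2 fold changes thus ran between -0.68 and -0.13.

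Of the 3 non-ATPase genes of the base 1 fell, and their median was -0.01. After the corrections 2 and 0 of them fell (66.7% and 0.0%, against 30.8% and 30.5% of all genes). The medians were then -0.24 and -0.05. Psmd4 (chr3:95032694-95042614), a ubiquitin receptor, had 102, 99.8 and 109.9 CPM in female libraries, against 135, 157 and 121 CPM in male libraries, a log2 fold change of -0.41 ± 0.09 (adjusted p = 0.00117). It was -0.24 after gene-length correction and -0.06, not called (adjusted p = 0.519), after principal-transcript correction. Psmd1 and Psmd2 encode the large scaffold proteins of the base, on which ubiquitin receptors dock. Psmd1 had 144, 151 and 148 CPM in female libraries, against 154, 148 and 144 CPM in male libraries, which overlap, at -0.01 ± 0.07 on the log2 scale (adjusted p = 0.88). It was called lower after gene-length correction, at -0.31 (adjusted p = 0.00104), and not after principal-transcript correction, at -0.05 (adjusted p = 0.527).

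Psmd2 (chr16:20651652-20663414) ran the other way from most members. It had 385, 352 and 387 CPM in female libraries, against 317, 349 and 336 CPM in male libraries, so the lowest female library was just above the highest male one. The log2 fold change of 0.17 ± 0.08 was not called (adjusted p = 0.069), and it was 0.16 under either correction. It was called by DESeq2 (adjusted p = 0.0358) and without the second female library (0.21, adjusted p = 0.028).

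In the lid 5 of 8 genes fell, 1 rose and 2 were not called (median -0.25). After the corrections 3 and 1 fell and 1 and 2 rose, with medians of -0.14 and -0.06. Psmd14 (chr2:61711694-61800376), the deubiquitinase of the lid, had 76.5, 71.1 and 76.1 CPM in female libraries, against 113, 111 and 101 CPM in male libraries. Its log2 fold change was -0.54 ± 0.08 (adjusted p = 2.28e-05), and it was still called after both corrections, at -0.37 and -0.25. Psmd7 (chr8:107580381-107588464), the partner with which it forms a dimer, had 108, 101 and 114 CPM in female libraries, against 138, 148 and 129.6 CPM in male libraries. Both partners were lower in every female library. For Psmd7 the log2 fold change was -0.36 ± 0.08 (adjusted p = 0.0011), with -0.10 and -0.08, not called, after the corrections.

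Psmd11 (chr11:80428615-80473248), a scaffold subunit of the lid, was the 19S gene that rose. It had 114, 112 and 111 CPM in female libraries, against 94.7, 99.6 and 97.9 CPM in male libraries, with little spread within either sex and no overlap. The log2 fold change was 0.20 ± 0.08 (adjusted p = 0.0277). The call ended without the first female (adjusted p = 0.0885), first male (0.12) or last male library (0.0669), and the value was -0.03 after gene-length correction and 0.21, called, after principal-transcript correction.

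Psmd3, another scaffold subunit, had 145, 126 and 155 CPM in female libraries, against 156, 173 and 156 CPM in male libraries, and without overlap was not called at -0.19 ± 0.09 on the log2 scale (adjusted p = 0.0749). Without the third female library it was called at -0.26 (adjusted p = 0.0275). Psmd3 was also called lower after gene-length correction, at -0.30 (adjusted p = 0.00586), and not after principal-transcript correction, at -0.04 (adjusted p = 0.653). Psmd8 had 172, 181 and 175 CPM in female libraries, against 169, 186 and 146 CPM in male libraries. Its sexes overlapped, and its sign turned with the scaling, at 0.07 ± 0.09 with TMM factors (adjusted p = 0.489) and -0.04 with total counts alone. After the gene-length and principal-transcript corrections it was called higher, at 0.21 and 0.37. Psmd12, Psmd13 and Psmd6 fell by 0.38, 0.30 and 0.20 on the log2 scale. Psmd6 (adjusted p = 0.0446) was not called without the first female (adjusted p = 0.091), second female (0.16), first male (0.151) or last male library (0.0922), and Psmd13 not without the second female one (0.0633). None of Psmd6, Psmd7 and Psmd12 was called under either correction.

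The 4 activators, which bind the ends of the core in place of the 19S particle, did not share a direction before length correction, with 1 that rose, 3 not called and a median of -0.09. After gene-length correction all 4 values were positive and none was called, and after principal-transcript correction 1 rose, with a median of 0.18 in both. Psme4 (chr11:30771726-30880361), which encodes a large nuclear activator, had 115, 130.1 and 103 CPM in female libraries, against 82.4, 79.7 and 78.3 CPM in male libraries. Every female library was higher, with a log2 fold change of 0.53 ± 0.09 (adjusted p = 7.16e-05). It is the member in the longest bin of genes, and after the gene-length and principal-transcript corrections it was 0.17 and 0.03, not called (adjusted p = 0.0663 and 0.764).

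Psme1 and Psme2 encode the interferon-inducible ring activator and lie next to each other on chr14. Psme1 had 81.3, 80.8 and 81.2 CPM in female libraries, against 84.6, 97.6 and 74.4 CPM in male libraries (-0.08 ± 0.09, adjusted p = 0.511). Psme2 had 30.9, 27.6 and 34.9 CPM in female libraries, against 34.0, 42.9 and 23.7 CPM in male libraries (-0.11 ± 0.16, adjusted p = 0.596). In both genes the second male library was the highest and the third male library the lowest of all 6. Psme1 was called higher after principal-transcript correction (0.34, adjusted p = 0.00308). Psme3, the nuclear relative of the pair, had 66.8, 74.1 and 65.4 CPM in female libraries, against 76.4, 74.7 and 69.9 CPM in male libraries, and was not called (-0.10 ± 0.09, adjusted p = 0.329). Psmf1, which encodes a protein first described as an inhibitor of the core, fell by 0.44 on the log2 scale (adjusted p = 0.00126), and by 0.68 and 0.60 after the corrections.

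All 4 chaperones that assemble the core fell in female cells, with a median of -0.79, the lowest of the roles before length correction. After the corrections 3 fell in each (75.0%, against 30.8% and 30.5% of all genes). The medians were then -0.37 and -0.36, against -0.43 and -0.44 for the chaperones of the base. Psmg1 and Psmg2 encode a dimer on which the alpha ring is built. Psmg2 (chr18:67641599-67654162) had 17.0, 16.1 and 17.4 CPM in female libraries, against 31.4, 31.7 and 28.2 CPM in male libraries, a log2 fold change of -0.86 ± 0.12 (adjusted p = 6.42e-06). Psmg1 (chr16:95979933-95990960) had 13.2, 14.0 and 14.7 CPM in female libraries, against 24.7, 23.5 and 21.0 CPM in male libraries, a log2 fold change of -0.72 ± 0.13 (adjusted p = 0.000115). Both were apart without overlap and stayed called under both corrections, Psmg2 at -0.42 and -0.43 and Psmg1 at -0.32 and -0.29.

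Psmg3 and Psmg4 encode a second dimer of core assembly and were among the least abundant members. Psmg3 had 4.06, 3.33 and 2.94 CPM in female libraries, against 7.30, 7.41 and 7.32 CPM in male libraries, at -1.09 ± 0.21 the log2 fold change of greatest size among the 43 (adjusted p = 0.000288). Psmg4 had 8.74, 9.78 and 8.36 CPM in female libraries, against 15.6, 14.9 and 11.5 CPM in male libraries (-0.64 ± 0.16, adjusted p = 0.00261). After principal-transcript correction Psmg3 was still called at -0.61, and Psmg4 was not, at -0.04.

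Of the 3 chaperones that build the base, Psmd10 and Psmd5 fell and Psmd9 was not called. After the corrections 3 and 2 fell, where 30.8% and 30.5% of all genes did. Psmd10 (chrX:140948429-140956728), which encodes the oncoprotein gankyrin and is X-linked, had 16.8, 16.6 and 20.9 CPM in female libraries, against 29.9, 30.1 and 31.5 CPM in male libraries, a log2 fold change of -0.75 ± 0.12 (adjusted p = 4.75e-05), and -0.37 and -0.44 after the corrections, both called. Psmd5 (chr2:34849734-34874968) had 46.1, 46.7 and 46.3 CPM in female libraries, against 62.8, 62.8 and 54.5 CPM in male libraries, a log2 fold change of -0.37 ± 0.09 (adjusted p = 0.00179). Psmd5 is a longer gene, and its log2 fold changes after the corrections, -0.67 and -0.63, were larger than without. Psmd9 had 28.7, 27.3 and 31.3 CPM in female libraries, against 29.8, 31.6 and 34.5 CPM in male libraries, which overlap (-0.14 ± 0.11, adjusted p = 0.277). It was called after gene-length correction, at -0.43 (adjusted p = 0.0022), and not after principal-transcript correction, at -0.08.

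Core and regulatory genes were then set against each other within each library, as CPM per kilobase of gene length. The median over the 14 core genes was 36.1, 31.8 and 38.4 CPM per kb in female libraries, against 51.4, 53.7 and 49.1 CPM per kb in male libraries. The median over the 17 genes of the 19S particle was 31.3, 33.1 and 32.4 CPM per kb in female libraries, against 40.0, 39.4 and 35.9 CPM per kb in male libraries. Both medians were lower in every female library, although division by gene length does not remove the trend of the fold changes with length. The core median lay above that of the 19S particle in 5 libraries and under it in the second female one. The difference of the medians, core minus 19S on the log2 scale, was 0.20, -0.06 and 0.24 in female and 0.36, 0.45 and 0.45 in male libraries, a mean of 0.13 ± 0.16 in female and 0.42 ± 0.05 in male cells (SD, n = 3 each). With principal transcript lengths it was 0.34 ± 0.10 in female and 0.37 ± 0.07 in male cells, so the sexes then overlapped. Without division by length the 19S genes were the higher ones, at -0.48 ± 0.05 in female and -0.31 ± 0.07 in male cells. The median log2 fold change was -0.43 over the core and -0.30 over the 19S particle, and -0.21 for both after gene-length correction. After principal-transcript correction it was -0.10 and -0.06, against -0.04 over all genes tested. Then 28.6% of the core and 23.5% of the 19S genes fell, against 30.5% of all genes.

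**Figure D4:**
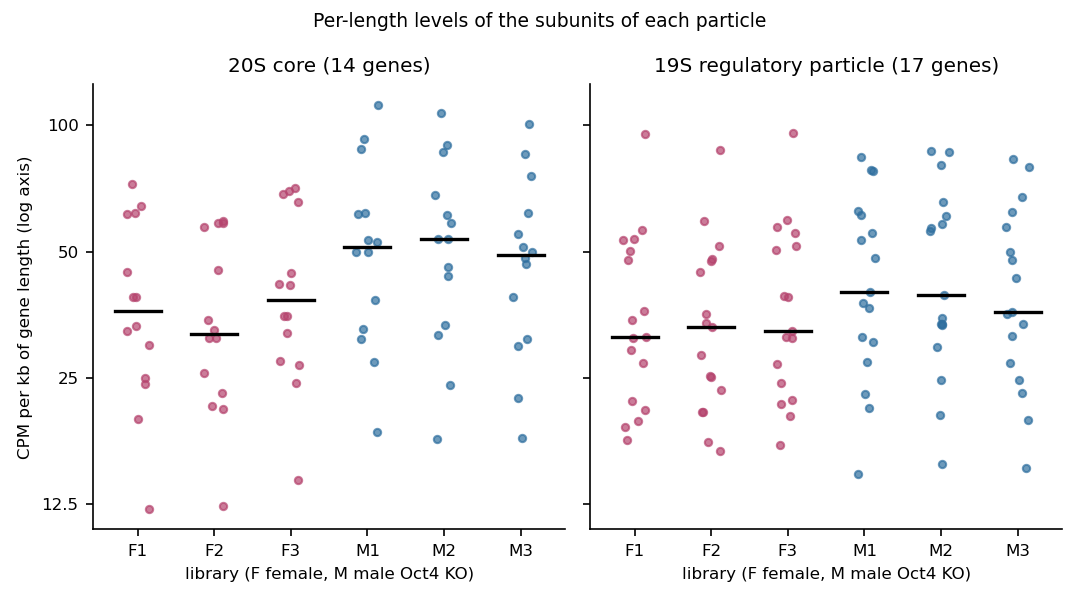
CPM per kilobase of gene length in each library (F1 to F3 female, M1 to M3 male) for the 14 tested core genes and the 17 genes of the 19S particle, with the median over genes as a black bar. The core medians are 31.8 to 38.4 in female and 49.1 to 53.7 in male libraries, those of the 19S particle 31.3 to 33.1 and 35.9 to 40.0.

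Subunits that enter the particle in equal number were not at equal RNA levels. Per kilobase of gene length, the highest core gene was 4.76 to 5.99 times the lowest in each library, and the highest 19S gene 5.20 to 5.66 times the lowest. Averaged over the 6 libraries, Psmd2 (87.8 CPM per kb), Psmb5 (86.8), Psmb4 (76.7) and Psma6 (73.1) led the order, and Psmb7 (15.6) was the lowest core gene. The order closed with the assembly factor Psmd5 at 7.36, the inhibitor Psmf1 at 5.50, and the assembly factors Psmd9 at 4.21 and Psmg3 at 1.86 CPM per kb. The assembly factors Psmg2 (22.3), Psmg4 (20.7) and Psmd10 (16.5) lay above Psmb7. The order depended on the length used. With principal transcript lengths Psma7 came first (142 CPM per kb), followed by Psmb4 (126) and Psmd2 (119.7), and Psmg3 stayed last (6.11). The lowest core gene was then Psma3 (31.8), and the lowest 19S gene Psmd13 (36.3). Psmb7, at 45.9, then lay above Psmg2 (22.3), Psmg4 (20.7) and Psmd10 (17.0).

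Within a sex, members tended to be low in the same library. The second female library was the lowest of its sex in 28 of 43 members (65.1%, against 36.0% of all genes tested), and the third male library in 29 of 43 (67.4%, against 32.3%). Their median log2 deviation from the mean of their sex was -0.07 each. In the core alone the second female library deviated by -0.11 and the third female one by 0.13. The second female and the third male library each had the most positive slope on gene length of its sex, 0.186 and -0.103. The part of gene length in these deviations was not tested.

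Proteasome factors whose symbols do not follow the Psm pattern moved in both directions, in shares close to those of all genes. Of 19 listed, Paaf1 was not used here, and of the 18 tested 5 fell, 7 rose and 6 were not called (median 0.11), against 29.8% lower and 30.9% higher of all genes. The counts were again 5 and 7 after gene-length correction and 7 lower and 6 higher after principal-transcript correction. Adrm1, a ubiquitin receptor of the base, had 76.6, 72.8 and 85.8 CPM in female libraries, against 124, 139.7 and 113 CPM in male libraries (-0.68 ± 0.09, adjusted p = 9.15e-06). Pomp, the maturation chaperone of the core, fell by 0.57 (adjusted p = 1.79e-05) and Sem1, a small lid subunit, by 0.64 on the log2 scale (adjusted p = 7.03e-05). After the principal-transcript correction these were -0.38, -0.29 and -0.34. Zfand2a, a stress-induced proteasome-binding protein, had 82.8, 109.7 and 85.7 CPM in female libraries, against 30.1, 24.2 and 28.1 CPM in male libraries (1.75 ± 0.12, adjusted p = 1.11e-09). Ecpas, a scaffold that binds the assembled particle, had 139, 147 and 127 CPM in female libraries, against 82.8, 85.8 and 74.4 CPM in male libraries (0.77 ± 0.09, adjusted p = 8.69e-07), and 0.22 after principal-transcript correction, against 1.71 for Zfand2a. Pomp and Sem1 were named after their values were seen, besides the 4 with the smallest p, Zfand2a, Ddi2, Ecpas and Ubqln2 (0.62, adjusted p = 6.74e-06), and so was Adrm1.

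Of 13 genes listed for the NFE2L1 route, by which cells induce proteasome genes, 6 rose, 5 fell and 2 were not called (median 0.15). Of all genes 30.9% rose and 29.8% fell. After the corrections 6 and 5 of the 13 rose and 4 and 3 fell, with medians of 0.06 and -0.06. The list also held Nfe2l2 (0.38, adjusted p = 0.000197) and Keap1 (-0.25, adjusted p = 0.0179), both named after their values were seen. Nfe2l1 itself had 461, 439 and 451 CPM in female libraries, against 278, 268 and 315 CPM in male libraries, and was higher in every female one (0.65 ± 0.08, adjusted p = 2.26e-06). It was 0.49 and 0.36 after the corrections, both called. Ddi2, the protease that cleaves and so activates NFE2L1, had 161, 164 and 159 CPM in female libraries, against 97.8, 83.3 and 93.0 CPM in male libraries (0.82 ± 0.08, adjusted p = 1.94e-07). It is a long gene, at 0.41 after gene-length correction and 0.15, not called (adjusted p = 0.0908), after principal-transcript correction. Mafg, a small partner with which NFE2L1 binds DNA, had 216, 204 and 231 CPM in female libraries, against 108, 101 and 113 CPM in male libraries (1.02 ± 0.08, adjusted p = 1.18e-08), and 0.85 and 0.69 after the corrections. The other small MAF genes, named after their values were seen, fell, Mafk by 0.33 (adjusted p = 0.0211) and Maff by 0.29 on the log2 scale (adjusted p = 0.0431), Maff not after either correction. Maf, which is not a small MAF gene, rose by 1.85 ± 0.22 on the log2 scale (adjusted p = 1.41e-06). Syvn1, a ubiquitin ligase of the endoplasmic reticulum, fell by 0.70 (adjusted p = 1.15e-06). Neither protein nor proteasome activity was measured.

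Genes that act ahead of the proteasome, in tagging or folding its substrates, moved in both directions. Of all genes tested 29.8% fell and 30.9% rose, and 30.8% and 30.5% fell after the corrections. Of 13 genes for ubiquitin and its activation 9 fell, 3 rose and 1 was not called (median -0.24), and 10 and 7 fell after the corrections. The smallest adjusted p were those of Ube2c, a mitotic ubiquitin-conjugating enzyme (-1.22 ± 0.11, adjusted p = 9.37e-08), Ube2n (-0.68, adjusted p = 3.88e-06), Uba6 (0.82 ± 0.12, adjusted p = 1.21e-05) and the ribosomal ubiquitin fusion gene Rps27a (-1.47 ± 0.21, adjusted p = 1.34e-05). Of 17 cytosolic chaperone and chaperonin genes 8 fell, 1 rose and 8 were not called (median -0.19), and 8 and 10 fell after the corrections, with Cct2 lowest in p (-0.74 ± 0.07, adjusted p = 1.68e-07) and the stress-induced Hsph1 the gene that rose (0.55 ± 0.08, adjusted p = 9.44e-06).

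Relatives of the lid were mostly lower in female cells, as most lid genes were before length correction. The COP9 signalosome, which takes the ubiquitin-like NEDD8 off cullin ligases, and the eIF3 initiation factor share the PCI and MPN domains of the lid. Of 9 COP9 genes 7 fell, 0 rose and 2 were not called (median -0.52). Of 8 eIF3 genes 6 fell, 1 rose and 1 was not called (median -0.51). Of all genes tested 29.8% fell and 30.9% rose. Cops5, the catalytic subunit and a relative of Psmd14, had 54.7, 52.3 and 54.4 CPM in female libraries, against 88.3, 87.4 and 87.1 CPM in male libraries (-0.70 ± 0.08, adjusted p = 8.92e-07). Cops7a (-0.75 ± 0.08, adjusted p = 6.33e-07) and Eif3k (-0.75, adjusted p = 1.76e-06) had the smallest p of their lists. After gene-length correction 7 COP9 and 5 eIF3 genes fell, where 30.8% of all genes did. Their medians were -0.56 and -0.41, against -0.21 in the proteasome members and -0.14 in the lid. After principal-transcript correction 7 and 4 fell, where 30.5% of all genes did. The medians were then -0.31 and -0.22, against -0.08 in the proteasome members and -0.06 in the lid.

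Overlapping genes limit some of these values. The span of 15 tested members holds a gene on the opposite strand, and the sources used here do not state whether counting used strand. In 3 of them, Psmb7, Psmc3 and Psmd13, an overlapping gene had at least 10% of the member's counts, for Psmd13 Gm15542 with 12.9% and Sirt3 with 11.8%. The 4 pseudogenes named after members had 0 counts in all 6 libraries.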

How the data were processed

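Polyadenylated RNA for the 6 libraries was fragmented and copied from random hexamers, per the labels' protocols. The submitters' processing notes name HISAT2 2.0.5, featureCounts 1.5 and mm10; strand and multi-mapping settings are not given in the sources used here. The deposited values are raw read counts per gene, not normalized by the authors. The members, gene lists and tests were chosen with earlier results of these data known. The sexes were compared with edgeR 4.0.16 in R 4.3.3 (filterByExpr, TMM, quasi-likelihood test, two-sided), with Benjamini-Hochberg adjustment over 14814 genes; the SE is the size of the log2 fold change over the square root of F. CPM uses the TMM effective library size. Libraries of a sex differed beyond sampling noise, with a chi-square of 7.4 to 16 per degree of freedom. Length was corrected with a per-library natural spline of 5 degrees of freedom, from the table's gene length. A second correction, added after the data were seen, used the longest APPRIS principal transcript of GENCODE M21. That release held 99.8% of the identifiers, with or without a principal transcript. Genes without one, such as Cct6a, were given the median length of the genes fitted. The fit and the gene-length correction were tested on simulated data, the latter with a slope put on that same length. The principal-transcript correction was not tested in this way. Values in every library are given for the catalytic subunits, the activators, the 2 smallest adjusted p per direction and role, and members not called or against their role. Alternatives were other scalings, DESeq2 1.42.0, limma-voom (limma 3.58.1), no filter on low counts, protein-coding genes alone, a replicate block and leaving out each library. Same-numbered libraries were not treated as pairs.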

Additional observations from a re-analysis of the deposited data

How the results depend on the processing

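The length of the genes mattered most. With gene-length correction alone 1 core gene rose (0 without it), and 0 of the activators, inhibitor and assembly factors rose instead of 1. With the replicate block added to it 1 core gene rose and 7 fell instead of 12. With principal-transcript correction 4 core and 4 of the 19S genes fell, and 1 and 2 rose. The core's median log2 fold change minus that of the 19S particle, -0.13, turned to 0.01 with gene-length correction with or without the block, and was -0.16 to -0.10 without 1 library. The count of 19S genes that rose, 1, was 0 with upper-quartile scaling, total counts, no filter or the replicate block, 2 with DESeq2 and 0 to 2 without 1 library. The core minus 19S level (0.13 female, 0.42 male) was -0.48 female and -0.31 male without division by length, 0.64 and 0.84 against all members outside the core, 0.34 and 0.37 with principal transcripts, and 0.23 in male cells as a mean of log2 values.

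Signs turned with gene-length correction in Psma5 (0.17), Psma6 (0.01), Psmb2 (0.38), Psmc1 (0.16), Psmd11 (-0.03), Psme1 (0.20), Psme2 (0.23) and Psme3 (0.05), with the same values when the replicate block was added except Psme2 (0.26). They turned with principal-transcript correction in Psma1 (0.01), Psma4 (0.04), Psma5 (0.14), Psma6 (0.02), Psmb2 (0.44), Psmb3 (0.05), Psmc1 (0.12), Psmd6 (0.13), Psme1 (0.34) and Psme2 (0.35). Psmd8 was 0.00 with upper-quartile scaling and -0.04 with total counts. Without 1 library Psmd1 ran between -0.04 and 0.01, Psmd8 between -0.02 and 0.14, Psme1 between -0.17 and 0.01 and Psme2 between -0.31 and 0.09. The cause was not tested. Over the 13 alternatives without length correction, 521 of 559 member values kept direction and call. Total counts moved the median of all genes to -0.13 and of the members to -0.48.

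The replicate numbers did not pair the libraries (correlations of same-numbered deviations -0.01, -0.10 and -0.15). The replicate block called 8525 genes instead of 8993, left 12 core and 9 of the 19S genes lower, and ended the calls of Psmd6 and Psmd11. Without 1 library 8236 to 8841 genes were called, with 11 to 13 core and 8 to 12 of the 19S genes lower. With 3 libraries per sex an exact permutation test of a single gene cannot go under p = 0.1.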
